A study of Homo sapiens with 32 samples.

Results

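Palbociclib (PB) alone was compared with DMSO, its solvent, in SK-N-BE(2)C cells, using the 4 PB and the 4 DMSO H3K27ac ChIP libraries of the series, which are 8 of its 32 samples. SK-N-BE(2)C is an established human neuroblastoma line with amplified MYCN and an adrenergic, sympathetic neuron-like identity. The PB cells received 1 µM palbociclib for 5 days and the DMSO cells received solvent only for the same 5 days, and no other agent was given to either group. The libraries were labelled replicates 1 to 4 in each group, and the study's methods define biological replicates as different passages of the line plated in independent experiments, so they describe the spread of 1 cell line and not of patients. The question was where in the genome acetylation of histone H3 at lysine 27 differed after PB, at regions around transcription start sites and, apart from them, at distal regions. Of 92108 regions in the authors' comparison, 92092 lay on reference chromosomes. Of these, 19896 (21.6%) lay within 3 kb of a protein-coding start site and are called start-site regions, and 72196 (78.4%) are called distal.

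Palbociclib inhibits CDK4 and CDK6, the kinases that with D-type cyclins phosphorylate RB. Unphosphorylated RB and its relatives hold E2F factors in a repressed state at the promoters of genes for DNA replication, and the related DREAM complex holds down mitotic genes through a short promoter element called CHR. H3K27ac marks active promoters and enhancers, and in adrenergic neuroblastoma the broadest domains lie over transcription factors of the core regulatory circuitry (CRC), among them HAND2 and GATA3.

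Values of 3 kinds were read. The first was the concentration difference, which is the authors' mean log2 concentration (normalised reads in a region) of the PB libraries minus that of the DMSO libraries. It carries no spread and could not be recomputed without a library, so a difference beyond 1, a 2-fold change, is a description only. The second was the peak enrichment in each library, the fold of ChIP over input, which in broad peak calling is a mean over the peak, and the third was the number of bases under peaks (breadth). Enrichment and breadth were tested with limma over the 31019 regions that had a peak in all 8 libraries (12924 start-site and 18095 distal). A region was said to rise or fall at a Benjamini-Hochberg adjusted p under 0.05 with a log2 change beyond 0.5, relative to the median of its library. Read depth per library is unknown here.

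The libraries were not uniform within the PB group. Log2 enrichment correlated at 0.97 between PB libraries 1 and 2 and at 0.95 between PB libraries 3 and 4, but at 0.87 to 0.90 across those pairs, against 0.93 to 0.96 among the DMSO libraries. PB libraries 1 and 2 correlated with the DMSO libraries at 0.90 to 0.93 and PB libraries 3 and 4 did so at 0.82 to 0.87. These correlations are over regions and are a description. PB libraries 3 and 4 also had the lowest median enrichment at start-site regions, as the plot of library medians shows. Results are therefore also given without PB libraries 3 and 4 and without PB libraries 1 and 2. In chromatin from a bulk culture, fewer cells carrying the mark and less mark per cell cannot be told apart. All 8 defining adrenergic genes examined, HAND2, GATA3, ISL1, TH and DBH among them, had a start-site region with a peak in every library, against 4 of 8 genes of the mesenchymal neuroblastoma state, 1 of 16 immune, 2 of 10 endothelial and 5 of 11 epithelial genes.

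**Figure D1:**
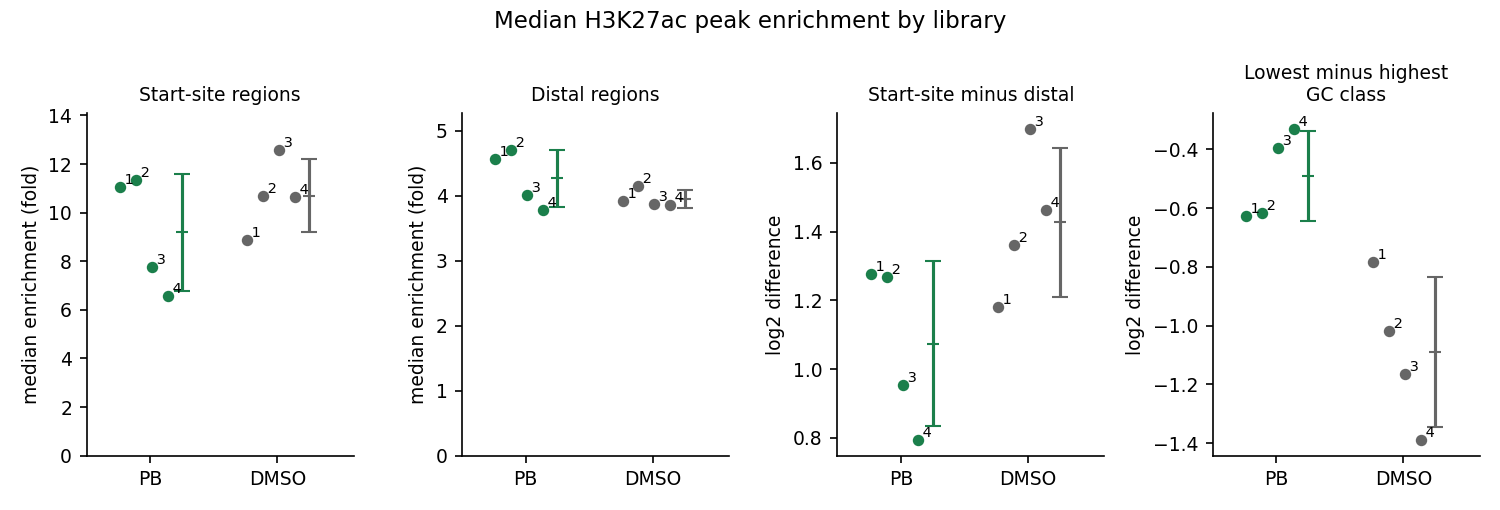
Median peak enrichment of each library, with PB left of DMSO; points are libraries with their replicate number, and bars are the mean and SD (n = 4 each). The first pair of panels gives the median fold over input at start-site and distal regions with a peak in all 8 libraries, and the other pair gives log2 differences between classes of region. The groups overlap in every panel except the last, where the PB libraries lie at -0.63 to -0.33 and the DMSO libraries at -1.39 to -0.78.

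Promoter sequence of 5 genes is shown here because the values below turn on these genes and on the base composition of their start sites. Each is the 250 bases before the RefSeq start (table build GRCh38.p14), read 5′ to 3′ on the gene's strand and placed on hg19 by exact match. In the first pair, from E2F2 (chr1:23857726-23857975, minus strand), an activating E2F factor, and RFC3 (chr13:34392036-34392285, plus strand), a subunit of the clamp loader that places PCNA on DNA, capitals mark a match to an E2F motif.
E2F2: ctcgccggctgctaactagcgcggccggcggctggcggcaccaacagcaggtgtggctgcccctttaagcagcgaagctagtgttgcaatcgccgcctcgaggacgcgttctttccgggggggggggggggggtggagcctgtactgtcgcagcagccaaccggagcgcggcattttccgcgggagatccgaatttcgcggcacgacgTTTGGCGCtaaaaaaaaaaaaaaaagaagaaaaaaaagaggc
RFC3: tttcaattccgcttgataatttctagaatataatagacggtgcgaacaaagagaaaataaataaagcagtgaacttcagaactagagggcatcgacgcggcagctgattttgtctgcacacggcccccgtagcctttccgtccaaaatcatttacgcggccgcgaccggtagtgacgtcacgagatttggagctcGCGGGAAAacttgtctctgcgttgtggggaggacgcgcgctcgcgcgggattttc
In MKI67 (chr10:129924688-129924937, minus strand), which encodes the proliferation marker Ki-67, capitals mark the CHR letters.
MKI67: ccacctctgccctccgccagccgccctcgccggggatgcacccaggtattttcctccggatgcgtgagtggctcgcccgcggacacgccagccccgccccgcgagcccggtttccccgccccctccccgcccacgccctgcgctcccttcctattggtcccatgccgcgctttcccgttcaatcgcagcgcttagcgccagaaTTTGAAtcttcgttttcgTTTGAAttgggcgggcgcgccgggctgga
In FOXD2 (chr1:47903466-47903715, plus strand), a forkhead transcription factor, and DCX (chrX:110655421-110655670, minus strand), the microtubule-binding protein doublecortin of migrating neurons, capitals mark CpG.
FOXD2: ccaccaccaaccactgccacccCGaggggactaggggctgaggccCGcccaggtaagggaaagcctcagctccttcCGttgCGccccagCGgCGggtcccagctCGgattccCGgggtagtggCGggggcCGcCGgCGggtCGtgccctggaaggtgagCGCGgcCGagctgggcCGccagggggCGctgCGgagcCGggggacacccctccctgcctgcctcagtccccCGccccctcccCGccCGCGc
DCX: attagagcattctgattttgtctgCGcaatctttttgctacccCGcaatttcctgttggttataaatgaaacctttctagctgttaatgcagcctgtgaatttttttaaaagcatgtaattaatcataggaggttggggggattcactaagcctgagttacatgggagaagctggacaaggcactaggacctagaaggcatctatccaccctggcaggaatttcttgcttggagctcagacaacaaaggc
The FOXD2 stretch was 76.8% G or C and held 24 CpG, and the DCX stretch was 42.8% G or C and held 2. All 5 stretches lay within or overlapped a region of the comparison. The E2F motifs searched, on both strands, were TTTGGCGC, TTTCCCGC and TTCCCGCC, of which the last pair can overlap, and the CHR motif was TTTGAA. Of 11727 genes matched to a RefSeq promoter window, 834 (7.11%) held an E2F motif and 1132 (9.65%) held TTTGAA. The E2F motifs were found in 22 of 36 matched DNA replication genes (61.1%), and TTTGAA in 22 of 29 matched mitotic genes (75.9%). A match is a description of the letters and not of a bound site.

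Concentration differences were mostly negative at start sites and lay on both sides of 0 at distal regions. The median over start-site regions was -0.37 (quartiles -0.72 and -0.06), and that over distal regions was 0.02 (quartiles -0.46 and 0.50). At start sites, 340 regions were higher in PB beyond 1 (1.71% of 19896) and 2586 were lower (13%). Among distal regions, 6354 were higher (8.8% of 72196) and 4908 were lower (6.8%). With distance from the nearest start site the median was -0.40 (start site inside the region), -0.25 (up to 3 kb), -0.19 (3 to 10 kb), -0.06 (10 to 50 kb), 0.06 (50 to 100 kb) and 0.25 (over 100 kb). Beyond 100 kb, 13.3% of 19783 regions were higher and 4.22% were lower.

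Base composition moved with the same difference. Median GC content was 53.3% at start-site regions and 45.3% at distal regions. In 10 classes of GC content, the start-site median was -0.87 in the highest class (59.3% to 83.8% GC) and 0.43 in the lowest (25.3% to 36.8% GC), and the distal median was -0.84 and 0.56 in the same classes. In the class of 52.4% to 55.4% GC the medians were -0.41 at start sites and -0.44 at distal regions. In the class of 39.6% to 42.1% GC they were 0.15 and 0.32, and the start-site median lay below the distal one in every class up to that of 49.6% GC. After centring within the 10 classes the medians were -0.03 at start sites and 0.01 at distal regions, and the regions lower beyond 1 at start sites numbered 467. Distal medians by chromosome were lowest on chromosomes 19 (-0.42), 22 (-0.36) and 17 (-0.32), where the median GC of all regions was 55.7%, 54.1% and 52.0%, and highest on chromosome 13 (0.31), where it was 41.7%. The part of base composition in the preparation or sequencing of the libraries was not tested, and it cannot be told apart here from a difference in the chromatin.

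**Figure D2:**
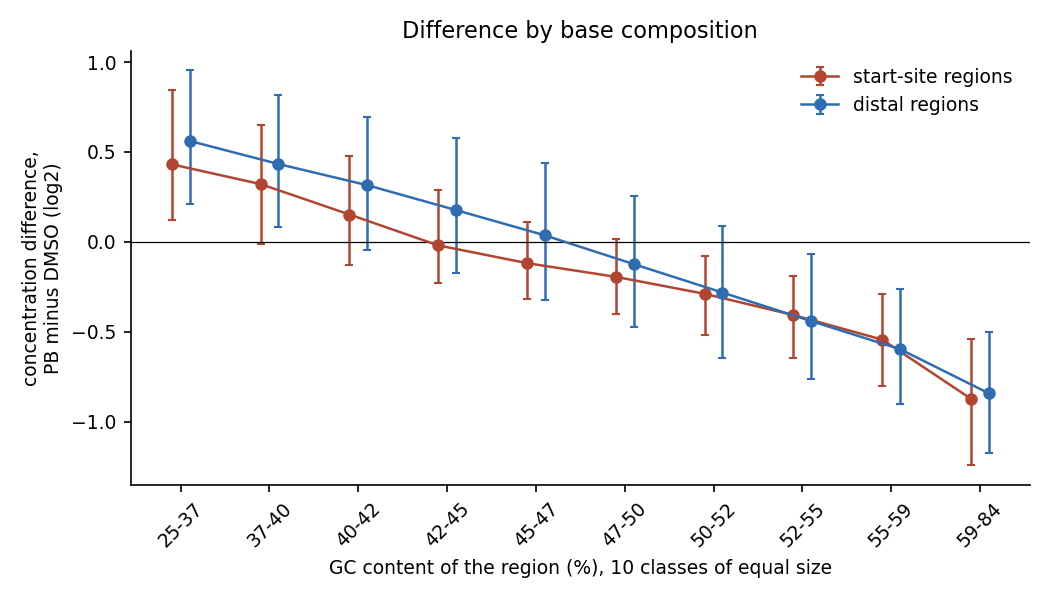
Concentration difference (PB minus DMSO, log2) in 10 classes of equal size by GC content, for start-site and distal regions. Points are medians and bars are the quartiles over regions; both kinds of region pass from medians of 0.43 and 0.56 in the lowest class to -0.87 and -0.84 in the highest.

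The gradient was also measured in each library. The median log2 enrichment of the lowest GC class minus that of the highest was -0.63, -0.61, -0.39 and -0.33 in PB libraries 1 to 4, against -0.78, -1.02, -1.17 and -1.39 in DMSO libraries 1 to 4. The groups did not overlap, with means of -0.49 ± 0.15 in PB and -1.09 ± 0.25 in DMSO (SD, n = 4 each; two-sided exact permutation p = 0.0286, the smallest that 70 arrangements can give; adjusted over 16 library measures, 0.366). None of the 16 measures passed the adjustment. A single measure at that smallest p could not have passed it, so this does not show that the libraries were alike. Median enrichment was 9.18 ± 2.39 in PB and 10.7 ± 1.51 in DMSO at start-site regions (exact permutation p = 0.314) and 4.27 ± 0.44 in PB and 3.95 ± 0.14 in DMSO at distal regions (p = 0.286, SD, n = 4 each). The number of start-site peaks was 19518 ± 1863 in PB and 20185 ± 1487 in DMSO (exact permutation p = 0.743, SD, n = 4 each), and that of distal peaks 63844 ± 6818 in PB and 63508 ± 11483 in DMSO (p = 0.943). The PB and DMSO libraries overlapped in median enrichment and in peak number, at start-site and at distal regions.

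By limma, 49 start-site regions rose in enrichment (0.379% of 12924) and 871 fell (6.74%), while 344 distal regions rose (1.9% of 18095) and 199 fell (1.1%). Of the 871, 867 also had a negative concentration difference and 504 were beyond -1, and their median GC was 58.2%, against 52.8% for all start-site regions tested. Of the 344, 341 had a positive concentration difference and 192 were beyond 1. Centred within GC classes, 118 start-site regions rose and 258 fell, and 247 distal regions rose and 72 fell. With quantile normalization 192 start-site regions rose and 612 fell, and with only peaks at a −log10 q of 5 or more 148 rose and 199 fell, with 332 distal regions up and 18 down. Without centring on the library median 0 start-site regions rose and 9 fell by limma, with 1968 at an unadjusted p under 0.05. Without PB libraries 3 and 4, 48 start-site regions rose and 368 fell; without PB libraries 1 and 2, 97 rose and 4167 fell. Leaving out single libraries put the number that fell between 202 (without DMSO replicate 4) and 1794 (without PB replicate 2).

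The genes of the E2F family lay on the lower side. Start-site regions of genes were higher beyond 1 at 92 of 14878 genes (0.618%) and lower at 1838 (12.4%), and they rose in enrichment at 27 of 12462 genes tested (0.217%) and fell at 816 (6.55%). A negative difference was the common case, at 12775 of 14878 genes (85.9%). Of 10 E2F and DP genes, all had a negative concentration difference, 4 were lower beyond 1, and the median was -0.68, against -0.39 over all genes. The median after centring within GC classes was -0.34, against -0.03 over all genes. In enrichment 4 of 10 fell (E2F2, E2F6, E2F7 and E2F8) and 0 rose; E2F6 is named because the count is small. At E2F7, a repressor of the family that is itself an E2F target, enrichment was 6.10, 6.42, 6.77 and 4.88 in the PB libraries and 14.7, 15.4, 18.4 and 14.4 in the DMSO libraries. No PB library reached the lowest DMSO library. The change was -1.42 (SE 0.14, limma adjusted p = 0.000518), and the call held in all 18 alternatives run. At E2F2, whose promoter is shown above, enrichment was 7.31, 7.09, 5.25 and 3.81 in PB and 8.85, 9.09, 11.1 and 9.99 in DMSO (change -0.82, SE 0.15, limma adjusted p = 0.0114). E2F8, the other atypical repressor, had 5.60, 4.77, 4.64 and 3.43 in PB and 7.68, 8.29, 10.2 and 6.61 in DMSO (change -0.87, SE 0.15, limma adjusted p = 0.00999). At E2F1 the groups overlapped, with 6.53 to 14.5 in PB and 9.48 to 14.6 in DMSO (limma adjusted p = 0.344). The list's highest member was E2F5, with a concentration difference of -0.15.

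Each of 2 distal regions within 100 kb of E2F7 lay in the opposite direction from its start site. The region at chr12:77379000-77382513, 62013 bases away, had a concentration difference of 1.43 and a peak in 4 PB libraries and 1 DMSO library. The other had a difference of 1.80 and no peak in any of the 8 libraries. Distal regions were assigned by distance alone, and which gene they act on is not known from these data.

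Among 19 G1 regulators all start-site regions had a negative difference, as 85.9% of all genes did (median -0.59). Of these, 4 were lower beyond 1 (21.1%, against 12.4% of all genes). Enrichment fell at 5 of 17 tested and rose at 0, against 6.55% and 0.217% of all genes tested. CCNE2, an E-type cyclin that drives CDK2 at the entry into S phase, had enrichment of 10.6, 10.1, 9.96 and 7.66 in PB and 11.8, 19.0, 19.1 and 19.0 in DMSO (change -0.87, SE 0.16, limma adjusted p = 0.0105). All PB libraries were below all DMSO libraries, of which replicate 1 was far below the others. CCNE1, the other E-type cyclin, had 4.03 to 11.7 in PB and 8.95 to 13 in DMSO, with overlap (limma adjusted p = 0.198). A distal region 23403 bases from CCNE1 (chr19:30331513-30333674) had a concentration difference of 2.04 and a peak in 4 PB libraries and 1 DMSO library. CDKN1C, which encodes the CDK inhibitor p57, had the lowest difference of the list (-2.37), with no peak in any PB library and a peak in all 4 DMSO libraries; the region was 74.8% G or C.

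The genes of the drug's targets and their partners did not pass the test. CDK4 had enrichment of 15.8, 17.9, 13.2 and 11.3 in PB and 10.8, 13.7, 16.8 and 15.5 in DMSO, and a concentration difference of -0.01. CCND1, encoding cyclin D1, had 25.9, 28, 17.0 and 12.8 in PB and 19.6, 22.3, 20.3 and 17.3 in DMSO (difference -0.12). CDK6 had a concentration difference of -0.08 and RB1 one of -0.56. The 4 limma values were not past the threshold (adjusted p = 0.974 for CDK4, 0.933 for CCND1, 0.0936 for CDK6 and 0.0638 for RB1). CDKN1A, encoding the CDK inhibitor p21, had 3.93 to 5.07 in PB and 3.49 to 6.66 in DMSO, with overlap (limma adjusted p = 0.546).

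The DNA replication genes were lower as a group. Of 40 genes for the MCM helicase, the GINS complex, replication factor C, polymerases and nucleotide synthesis, 39 had a negative concentration difference, against 85.9% of all genes, with a median of -0.60 (-0.30 after centring within GC classes). Of the 40, 7 were lower beyond 1 (17.5%, against 12.4% of all genes). Enrichment fell at 8 of 40 and rose at 0, against 6.55% and 0.217% of all genes tested. The lowest was CHAF1B, a subunit of the chromatin assembly factor that loads histones on new DNA (chr21:37756955-37758693), with a concentration difference of -2.12 and an enrichment change of -1.34 (SE 0.19, limma adjusted p = 0.0046). The highest was RFC3, at 0.10, with an enrichment change of -0.18 (limma adjusted p = 0.422), although its promoter, shown above, holds an E2F motif.

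Mitotic genes showed the same direction. All 34 had a negative difference, against 85.9% of all genes, with a median of -0.58. Centring within GC classes left this median at -0.51, the start-site regions of the list being only 47.7% G or C at the median. Beyond 1, 5 of the 34 were lower (14.7%), near the 12.4% of all genes. Enrichment fell at 5 of 34 and rose at 0, against 6.55% and 0.217% of all genes tested. MKI67 had enrichment of 12.4, 12.3, 6.51 and 5.96 in PB and 15.4, 19.4, 22.5 and 17.3 in DMSO (change -1.11, SE 0.18, limma adjusted p = 0.00704). PB libraries 1 and 2 lay between libraries 3 and 4 and the DMSO libraries, and all 4 PB libraries were below every DMSO library. SMC2, a condensin subunit, was the highest of the list, at -0.17.

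How many cell-cycle genes passed depended on the PB libraries. Without PB libraries 3 and 4, enrichment fell at 3 of 10 E2F family genes, 2 of 17 G1 regulators, 4 of 40 replication genes and 1 of 34 mitotic genes. Without PB libraries 1 and 2 it fell at 8, 9, 19 and 13. With centring within GC classes it fell at 3, 6, 4 and 2, and without centring on the library median at 1, 0, 0 and 0. Leaving out single libraries gave 3 to 6 E2F family genes, 1 to 7 G1 regulators, 2 to 13 replication genes and 2 to 9 mitotic genes. Enrichment rose at none of these genes in any of these fits.

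**Figure D3:**
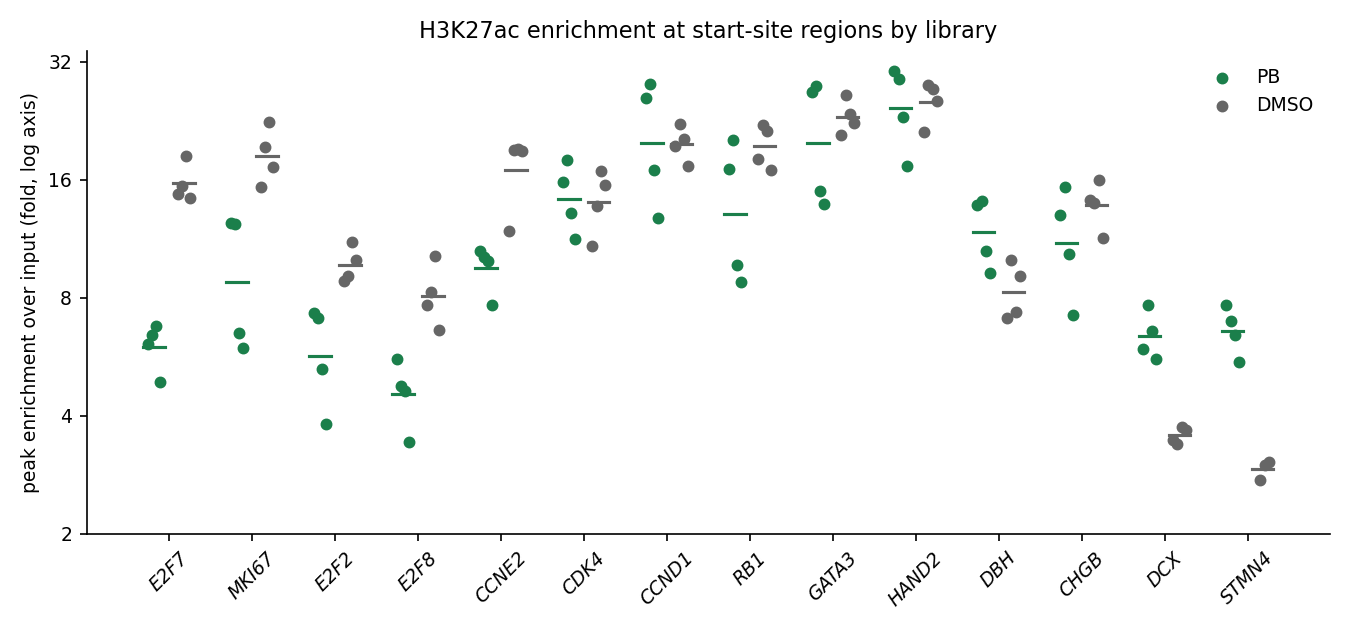
Peak enrichment over input (fold, log axis) at the start-site region of 14 genes, with PB left of DMSO; points are libraries and lines are geometric means. E2F7, MKI67, E2F2, E2F8 and CCNE2 are lower in every PB library than in any DMSO library, CDK4 and CCND1 overlap, and DCX is higher in every PB library. One DMSO library had no STMN4 peak and has no point.

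Start sites of the adrenergic circuitry showed no call. Of 19 adrenergic CRC genes with a start-site region, 0 rose and 0 fell in enrichment among 17 tested by limma. Over all genes tested 0.217% rose and 6.55% fell, so no call among 17 is near that share. An unadjusted p under 0.05 was found at 4 of the 17, against 4360 of all 12924 start-site regions tested. HAND2, a bHLH factor of sympathetic neurons, had enrichment of 30.3, 28.9, 23.2 and 17.4 in PB and 21.1, 28, 27.2 and 25.4 in DMSO, with overlap (limma adjusted p = 0.731). The concentration differences of HAND1 (-0.18), GATA3 (-0.26) and ISL1 (-0.15) were above the median of all genes, and the limma adjusted p was 0.98, 0.331 and 0.741. The lowest was INSM1, a zinc-finger factor of neuroendocrine cells, at -2.31 in a region of 77.6% GC with a peak in 0 PB and 2 DMSO libraries.

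Distal regions of this group were lower more often than higher. Over distal regions assigned to genes within 100 kb, 3732 of 52413 were higher beyond 1 (7.12%) and 4074 were lower (7.77%). Of 182 distal regions at adrenergic CRC genes, 5 were higher and 23 were lower (2.75% and 12.6%), with a median of -0.28, and of -0.23 after centring within GC classes. At HAND1, all 8 distal regions had a negative difference (median -0.78) and 3 were lower beyond 1, but the broad distal domain at chr5:153882305-153911568 stood at 11.7 in both groups. All 3 regions lower beyond 1 at HAND1 had a peak in fewer than 4 PB libraries. MYCN, the amplified oncogene, had no start-site region in the comparison and 3 distal regions, with differences of -0.65 to 0.64.

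Neuronal differentiation genes did not share 1 direction in enrichment at start sites: of 34 axon and neurite genes tested, 1 rose (DCX) and 2 fell (NCAM1, and DPYSL5, named because the count is small). Over all genes tested 0.217% rose and 6.55% fell. At NCAM1 the concentration difference was 0.07 and the called peaks were broader in PB, which can lower a mean over the peak. DCX had enrichment of 5.91, 7.65, 6.56 and 5.57 in PB and 3.46, 3.39, 3.75 and 3.68 in DMSO, a gap without overlap (change 0.80, SE 0.13, limma adjusted p = 0.00807). It lost the call in 1 of 17 alternatives. STMN4, a stathmin of neurons, had enrichment of 7.65, 6.98, 6.44 and 5.50 in PB, against no peak, 2.73, 3.0 and 3.04 in DMSO. It was not tested because 1 library had no peak, and its concentration difference was 2.16, the highest of the list of 38 axon and neurite genes. The lowest of that list was KIF21B, a kinesin, at -2.03. STMN2, GAP43, TUBB3 and SNAP25, further markers of neurons, had enrichment changes of 0.01, 0.14, -0.09 and -0.28, and none passed limma. Their concentration differences were 0.25, 0.56, -0.25 and 0.10, all above the median of all genes. Over the list the median difference was -0.10, against -0.39 for all genes, and it was 0.10 after centring within GC classes.

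Genes of catecholamine and peptide secretion had medians near 0 at start sites. The median difference of 10 catecholamine genes was -0.01, and 0.41 after centring within GC classes, and none was beyond 1 in either direction. Over all genes 0.618% were higher and 12.4% lower beyond 1. DBH, whose enzyme makes noradrenaline, had enrichment of 13.8, 14.1, 10.5 and 9.28 in PB and 7.1, 9.98, 7.35 and 9.07 in DMSO. PB library 4 lay below the highest DMSO library and the other PB libraries lay above it, and the change of 0.46 (SE 0.13) did not pass (limma adjusted p = 0.062). TH, the rate-limiting enzyme of the pathway, had 7.03 to 13.5 in PB and 10.1 to 12.4 in DMSO, with overlap. Among 15 dense-core vesicle genes tested, enrichment rose only at SCG5, a chaperone of prohormone processing, with 12.3, 9.30, 12.4 and 12.2 in PB and 5.64, 6.19, 7.29 and 5.75 in DMSO (change 0.85, SE 0.18, limma adjusted p = 0.0195), and it fell only at PTPRN2 (change -0.77, limma adjusted p = 0.041), a membrane protein of the granules.

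CHGB, which encodes the granule protein chromogranin B, stood out by its breadth and its surroundings. Bases under peaks at its start-site region (chr20:5890813-5898332) numbered 7105, 6953, 5406 and 5523 in PB and 1849, 1928, 2790 and 4140 in DMSO. Every PB library was broader than every DMSO library (log2 change 1.43, limma adjusted p = 0.0285), although the call was lost in 11 of 15 alternatives. Its enrichment did not differ beyond the spread (limma adjusted p = 0.192). Of 9 distal regions within 100 kb, 7 were higher beyond 1, and the median difference was 1.36. The strongest, chr20:5818765-5830996, had an authors' mean concentration of 10.4 in PB and 8.86 in DMSO. At chr20:5843633-5848236 the difference was 1.74, the highest of any dense-core vesicle gene, and enrichment rose by 0.85 (limma adjusted p = 0.00597).

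Distal regions of the secretory and synaptic lists are set here against distal regions of all genes, of which 7.12% were higher and 7.77% lower. Of 174 distal regions at dense-core vesicle genes, 22 were higher beyond 1 and 5 were lower (12.6% and 2.87%), with a median of 0.23, and of 0.24 after centring within GC classes. CHGB alone held 7 of these 22, from its 9 distal regions, so the share higher rests in large part on that locus. Of 263 at postsynaptic genes, 26 were higher and 10 lower (9.89% and 3.80%, median 0.27, 0.08 after centring). Of 213 at synaptic vesicle genes, 15 were higher and 2 lower (7.04% and 0.94%, median 0.15, 0.01 after centring), and of 486 at axon and neurite genes, 34 were higher and 19 lower (7.0% and 3.91%, median 0.20, 0.01 after centring). The shares higher of the synaptic vesicle and axon lists were thus near that of all genes, and their shares lower were smaller. Of these 4 lists, the dense-core vesicle list had the highest median after centring. Not every neuronal list leaned higher. Of 348 distal regions at neuronal bHLH and other factors, 9 were higher and 39 lower (2.59% and 11.2%, median -0.19, -0.16 after centring). Of 301 at axon guidance genes, 17 were higher and 15 lower (5.65% and 4.98%, median 0.08, -0.02 after centring). At start sites the medians after centring were 0.29 for dense-core vesicle, 0.19 for postsynaptic and 0.16 for synaptic vesicle genes, against -0.03 for all genes. Median GC was 40.7% to 43.4% at the distal regions of the dense-core vesicle, postsynaptic, synaptic vesicle and axon lists, against 46.8% for distal regions of all genes. The highest single regions were 62822 bases from DPYSL3, a cytoskeletal regulator of growth cones (2.19, peaks in 4 PB and 0 DMSO libraries), and 50740 bases from SV2C, a synaptic vesicle protein (1.96, no peak in any of the 8 libraries). At SLC18A2, the vesicular monoamine transporter, a distal region 30491 bases away had a difference of 1.10 and rose in enrichment by 0.62 (limma adjusted p = 0.031).

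**Figure D4:**
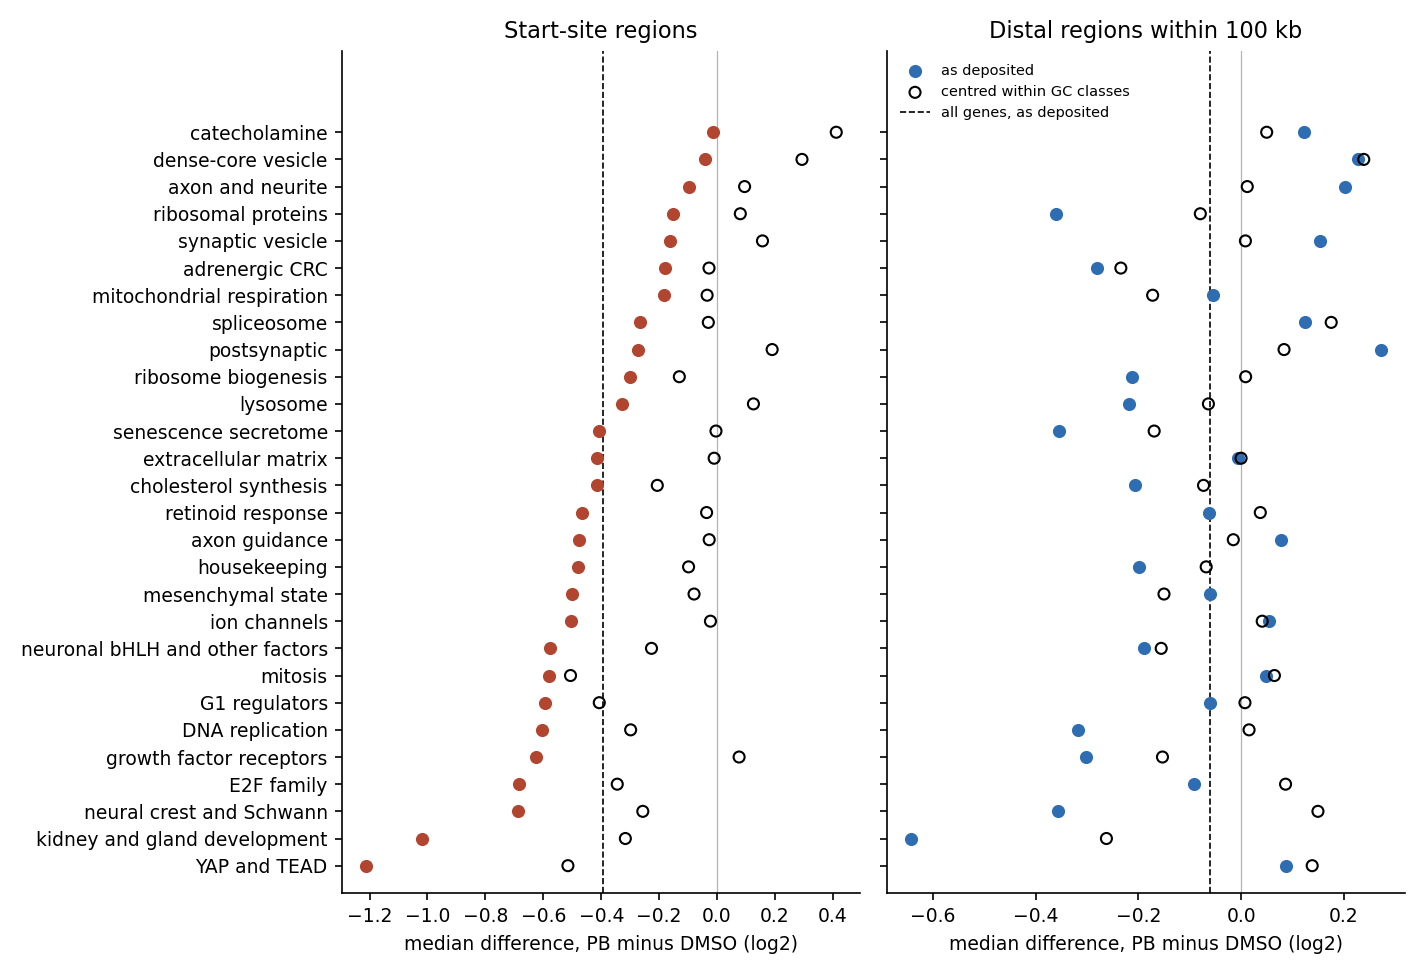
Median concentration difference (PB minus DMSO, log2) over the start-site regions and the distal regions of gene lists. Filled circles are as deposited, open circles are centred within 10 GC classes, and the dashed line is the median of all genes, -0.39 at start sites and -0.06 at distal regions. The E2F family, replication and mitotic lists lie left of the line at start sites. So do other lists, among them housekeeping (-0.48), axon guidance (-0.48) and growth factor receptors (-0.63). The dense-core vesicle list lies right of 0 at distal regions on both scales.

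Lists of other developmental programmes had the lowest start-site values, at regions rich in GC. Over all genes, 12.4% of start-site regions were lower beyond 1 and 0.618% higher, and 7.77% of distal regions were lower and 7.12% higher. Enrichment fell at 6.55% of all genes tested and rose at 0.217%. Of 12 YAP and TEAD genes, 7 were lower beyond 1 (median -1.21, GC 61.9%; -0.51 after centring), and of 21 kidney and gland development genes, 11 were lower (median -1.02, GC 62.2%; -0.32 after centring). Of the 12 YAP and TEAD genes, 4 had a peak in all 8 libraries and could be tested for enrichment, and 1 of them fell. TEAD3, the member that fell, is a DNA-binding partner of YAP and had a change of -1.44 (SE 0.17, limma adjusted p = 0.00166); it is named because the count is small. Of 12 kidney and gland genes tested 6 fell and 0 rose, with 4 left without PB libraries 3 and 4, and 2 after centring within GC classes. At FOXD2, shown above, 0 PB libraries and 4 DMSO libraries had a peak, with DMSO enrichment of 5.16, 3.78, 5.02 and 3.73, and the concentration difference was -3.25, the lowest of all start-site regions with a peak in all 4 DMSO libraries. Distal regions at kidney and gland genes were also lower, at 26 of 107 beyond 1, with 3 higher (median -0.64, -0.26 after centring). Growth factor receptor genes had 25 of 184 distal regions lower and 5 higher (13.6% and 2.72%, median -0.30). Mesenchymal genes, the alternative state of neuroblastoma cells, had 7 of 27 start-site regions lower beyond 1 (25.9%) and 0 higher (median -0.50, -0.08 after centring). That 0 were higher is near the share of all genes.

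Genes of general cell function had no large differences at start sites. None of the start-site regions of 44 ribosomal protein genes, 40 mitochondrial respiration genes, 35 spliceosome genes or 17 housekeeping genes was beyond 1 in either direction. Over all genes 12.4% were lower and 0.618% higher. Their medians were -0.15, -0.18, -0.27 and -0.48, so that the housekeeping list lay below the -0.39 of all genes, with 17 of 17 genes negative. By limma, enrichment fell at 1 of 17 housekeeping genes (HPRT1, named because the count is small) and at 0 of the other lists, and rose at none. Over all genes tested 6.55% fell and 0.217% rose. An unadjusted p under 0.05 was found at 7 ribosomal protein, 7 mitochondrial respiration, 6 spliceosome and 10 housekeeping genes, against 4360 of all 12924 start-site regions tested.

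The start-site regions with the highest differences, among those with a peak in all PB libraries, were at MAP3K13 (2.34), a kinase of axon injury signalling, PPP3CB (2.33), a catalytic subunit of calcineurin, ZNF449 (2.17), STMN4 (2.16), TMEM45B (2.07), CLVS1 (2.03), CPED1 (1.99) and BLOC1S6 (1.99), a subunit of the complex that builds lysosome-related organelles. No DMSO library had a peak at MAP3K13, where enrichment in PB was 3.36, 4.86, 3.02 and 3.07. The start site lay outside the region at 5 of these 8, by 157 to 2684 bases. The 8 lowest, among those with a peak in all DMSO libraries, included FOXD2 (-3.25), ATOH8 (-2.89), MAFA (-2.86), NECAB2 (-2.81), DHX32 (-2.74), ELF4 (-2.70) and SMTNL2 (-2.64). These 8 lowest were 64.5% to 78.4% G or C, and the 8 highest 36.9% to 60.3%.

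The falls in enrichment were larger than the rises at start sites. XKR5 had enrichment of 6.78, 6.77, 4.68 and 4.47 in PB and 14.2, 20.6, 21.3 and 17.7 in DMSO (change -1.75, limma). BAG3, a co-chaperone of selective autophagy, had 7.75, 8.72, 5.53 and 5.18 in PB and 18.7, 21.2, 21.1 and 20.8 in DMSO (change -1.66). SORBS3, ITGB5, PIM1 and LONRF1 had changes of -1.67, -1.56, -1.54 and -1.53. PIM1 encodes a pro-survival kinase and had 10.8, 10.5, 7.70 and 5.98 in PB and 23.0, 26.7, 28.3 and 19.2 in DMSO. XKR5, SORBS3, BAG3 and PIM1 kept their calls in every alternative in which they were tested, and ITGB5 and LONRF1 in all but 1. The largest rise was at ADAMTSL4, with 24.3, 19.2, 10.5 and 8.75 in PB and 5.81, 6.53, 7.32 and 7.70 in DMSO (change 1.04, limma adjusted p = 0.0171). Bases under peaks there were 3808, 4560, 6665 and 6192 in PB and 10067, 9094, 6169 and 10476 in DMSO (limma adjusted p = 0.207), and enrichment is a mean over the called peak. CLVS1 rose by 0.90, TMEM270 by 0.90, VGLL4, a TEAD cofactor, by 0.88, SCG5 by 0.85 and DCTN1, a dynactin subunit, by 0.82. The call held in 15 of 18 alternatives at ADAMTSL4, 15 of 17 at CLVS1, 16 of 17 at TMEM270 and VGLL4, 13 of 18 at SCG5 and 16 of 18 at DCTN1. At VGLL4 the PB libraries had 7.45, 8.75, 6.43 and 5.16 and the DMSO libraries 3.09, 3.97, 3.26 and 4.2.

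Among distal regions with a peak in all 4 PB libraries the difference reached 3.86, at chr9:122912983-122915446, 259198 bases from CDK5RAP2, a centrosomal protein. It had 7.21, 5.92, 5.78 and 4.97 in PB and no peak in DMSO. The next of these, by nearest gene, were those of TBC1D19 (3.47), SIDT1 (3.09), H2AZ1 (2.94), DUSP21 (2.93), C2orf88 (2.90), ZPLD1 (2.88) and PRMT6 (2.78). No DMSO library had a peak at these regions, except 1 at ZPLD1. The ZPLD1 and PRMT6 regions lay 175183 and 543538 bases from the start site, beyond the 100 kb used to assign genes. Among distal regions with a peak in all 4 DMSO libraries the lowest was 69448 bases from LINGO1 (-3.03, chr15:78182690-78183204), an inhibitor of neurite growth, with DMSO enrichment of 5.29, 4.53, 5.44 and 5.65 and no peak in PB. Regions with GRAPL (-2.89), IGLL1 (-2.65, 146090 bases away), BHLHE23 (-2.60) and TYRO3 (-2.27) as nearest gene were also among the 8 lowest.

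In enrichment the largest distal rise was 41345 bases from NSMCE3 (chr15:29516989-29520681), with 11.1, 9.11, 10.2 and 7.31 in PB and 3.15, 4.78, 3.06 and 4.95 in DMSO (change 1.22, SE 0.17, limma adjusted p = 0.0043). A region 204993 bases from MYC, the relative of MYCN, had 9.73, 7.93, 5.86 and 5.35 in PB and 3.12, 3.48, 3.61 and 2.85 in DMSO (change 1.07, SE 0.14, limma adjusted p = 0.0035). Regions with UGCG, SESN1, PPP2R1B and PTPRN2 as nearest gene rose by 1.10, 1.06, 1.01 and 1.01, that of PTPRN2 lying 346378 bases from its start site. SESN1 encodes a stress-induced inhibitor of mTORC1. The largest falls, by nearest gene, were those of ZBED5 (-1.39), INSIG1 (-1.34), a sterol sensor partner, PRODH (-1.32), LYN (-1.31), ADGRE5 (-1.30) and LHX1 (-1.28, 128483 bases away). Of these 12 regions, PRODH lost its call in 9 of 17 alternatives, and each of the others in at most 1.

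Distal regions of some genes shared a direction. Among genes with 5 or more distal regions within 100 kb, the median difference was highest at IL7 (1.88), DDX18 (1.85), MB21D2 (1.76), TLR4 (1.6), MCTP1 (1.58) and PLCXD3 (1.56). At DDX18, 6 of 7 distal regions were higher beyond 1. The lowest medians were at OSBPL5 (-1.61), ATOH8 (-1.54), MEGF6 (-1.49), EFNA2 (-1.49), an ephrin of axon guidance, CIDEC (-1.43) and CSPG4 (-1.33). At OSBPL5, MEGF6 and EFNA2 all distal regions (5, 8 and 5) were lower beyond 1. Median GC was 36.1% to 43.4% at the first 6 genes and 52.5% to 64.6% at the others.

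The start-site difference of a gene mostly lay below its distal differences, as it did over all regions. Over all regions the start-site and distal medians were -0.37 and 0.02, and -0.03 and 0.01 after centring within GC classes. The gap within genes is given without that centring. Over 5470 genes with a start-site region and 3 or more distal regions, the start site lay below the distal median in 4075 (74.5%), with a median gap of -0.36. The gap was widest at CRTAC1 (-3.60), VAV3 (-3.34), MLNR (-3.13), CMTM8 (-3.12), ABCB4 (-3.07) and MCTP1 (-2.81), where start-site regions of 69.5% to 75.3% GC stood beside distal regions of 36.9% to 56.0% GC. At CRTAC1, ABCB4 and MCTP1 a start-site peak was found in 0 PB and 2 DMSO libraries. The opposite gap was widest at ANKRD55 (1.94), TMEM45B (1.71), CFAP65 (1.68), AGBL1 (1.66), TMEM270 (1.65) and TTC9B (1.65). ANKRD55 and AGBL1 had a start-site peak in 2 PB and 0 DMSO libraries, and TMEM270 and TTC9B in 4 of each. At AGBL1 the concentrations were low, at 2.96 in PB and 0.85 in DMSO.

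Breadth changed at few start sites. It rose at 50 start-site regions (0.387%) and fell at 161 (1.25%), and at distal regions it rose at 313 (1.73%) and fell at 370 (2.04%), by limma. Without centring on the library median the median change over all regions was -0.12, against 0.02 with it, and 11 start-site regions rose and 107 fell. Without DMSO replicate 3, 106 start-site regions rose and 487 fell, and without PB replicate 2, 6 rose. Without PB libraries 3 and 4, 6 rose and 50 fell, and without PB libraries 1 and 2, 1 rose and 20 fell. The largest rises were at SLC6A15 (3.01), KDM4D (2.80), EIF4E3 (2.29), DLG2 (2.18), NCAM1 (1.64) and NCOA4 (1.54). NCAM1, a neural cell adhesion molecule, had 10961, 14452, 9452 and 10263 bases under peaks in PB and 3880, 3559, 4108 and 4246 in DMSO. Its enrichment was 14.0, 12.4, 8.33 and 7.40 in PB and 22.2, 28.4, 29.5 and 21.9 in DMSO (change -1.35, limma adjusted p = 0.0014), and its concentration difference was 0.07, so the called peaks were broader and less enriched at nearly the same concentration. DLG2, a postsynaptic scaffold, had 3817, 4501, 3463 and 2084 bases in PB and 611, 998, 933 and 758 in DMSO. The largest falls were at RFLNA (-3.52), RFX2 (-3.39), IGF2 (-3.31), ADSS1 (-3.27), CUX2 (-2.98) and CNN2 (-2.90). IGF2, a growth factor, had 454, 458, 206 and 527 bases in PB and 4872, 5833, 2586 and 4307 in DMSO. Of these 12 regions, KDM4D, DLG2, IGF2 and NCAM1 kept the call in 12 or more alternatives, and the others in 9 or fewer of 14.

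**Figure D5:**
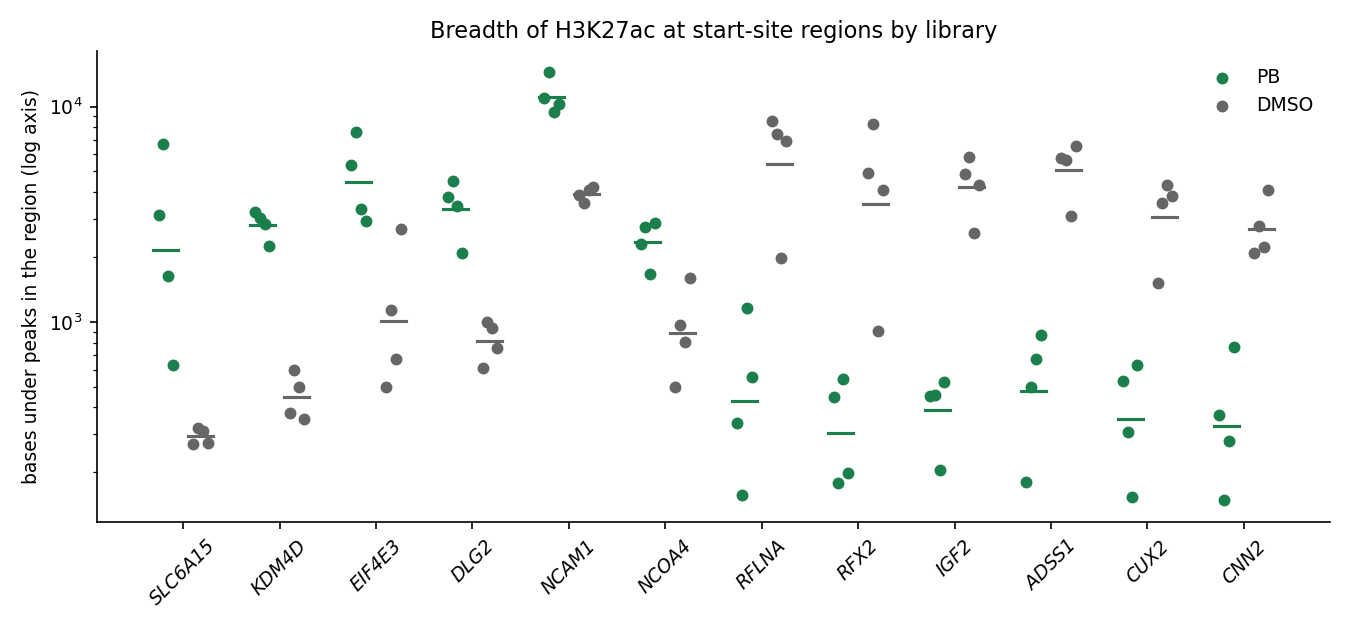
Bases under peaks (log axis) at the 12 start-site regions with the largest called change in breadth, 6 in each direction, with PB left of DMSO; points are libraries and lines are geometric means. NCAM1 has 9452 to 14452 bases in PB and 3559 to 4246 in DMSO, and IGF2 has 206 to 527 in PB and 2586 to 5833 in DMSO.

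Peaks present in 1 group only were few. At start sites, 42 regions had a peak in 4 of 4 PB and 0 of 4 DMSO libraries (0.211%) and 111 the reverse (0.558%). Among distal regions 732 had peaks in PB only (1.01%) and 369 in DMSO only (0.511%). Every region with peaks in PB only had a positive concentration difference, and every region with peaks in DMSO only a negative one. Median GC was 41.3% and 39.7% at start-site and distal regions with peaks in PB only, against 62.9% and 55.3% with peaks in DMSO only. A region with no peak need not lack the mark, since the authors' median concentration was still 4.43 in DMSO at the distal regions with peaks in PB only. COL5A2, a collagen chain, had peaks in PB only and a difference of 1.73. FGFR3, a growth factor receptor (-2.43), ID4, an inhibitor of bHLH factors (-1.95), and SLIT1, an axon repellent (-1.69), had peaks in DMSO only. CASZ1, a zinc-finger tumour suppressor of neuroblastoma chosen after its values were seen, had 5 regions with peaks in DMSO only.

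Motif counts differed with base composition. GATAA, the core of the GATA motif, occurred 2.52 times per kb in distal regions higher beyond 1, 0.77 times in those lower beyond 1 and 1.77 times over all distal regions, counted on both strands. Standardised to the GC classes of all distal regions these became 1.84, 1.65 and 1.72. The AP-1 motif TGANTCA became 0.44 in the higher regions and 0.33 in the lower ones, against 0.38 over all distal regions, on the same standard. The E2F motifs were found in 83 of 635 matched promoters of genes whose start-site enrichment fell (13.1%), against 7.11% of all promoters. Among genes with a start-site concentration difference below -1 they were found in 106 of 1342 (7.90%), near the share of all promoters. TTTGAA was found in 54 of the 635 (8.50%), against 9.65%. In the 73 matched promoters of genes with a start-site difference above 1, an E2F motif was found in 1 and TTTGAA in 21 (28.8%). None of these promoter shares was standardised to GC content. Over start-site regions, TTTGAA occurred 1.16 times per kb in those higher beyond 1, 0.37 times in those lower and 0.70 times over all. Standardised to GC classes these became 0.68, 0.73 and 0.69.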

How the data were processed

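H3K27ac ChIP-seq (antibody ab4729) of the 4 PB and 4 DMSO libraries was analysed, grouped by the sample titles. Input libraries have no values of their own here. Per the submitters' processing notes, the authors used fastp 0.12.4 for trimming, Bowtie2 2.4.4 for alignment (hg19), MACS2 2.2.7.1 for broad peaks of each library and DiffBind 3.4 for comparing groups, for which the methods state consensus peaks found in at least 2 of 4 replicates. The deposited peak lists give the authors' ratio (fold enrichment over input, a mean over the peak, so that a wider call can lower it) and −log10 q. The deposited table gives the authors' mean log2 concentration of each group. It also holds the authors' fold changes, p-values and FDR, which were not used. Read depth is unknown, so no counting interval is given.

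Regions were assigned to protein-coding start sites of GENCODE annotation on GRCh37 (78700 start sites of 19794 genes) within 3 kb, or to the nearest gene within 100 kb. In each library a region's enrichment was the mean of its peaks weighted by overlapping bases, and its breadth the bases under peaks. Log2 values, with no pseudocount, were centred on the library median over the 31019 regions with a peak in all 8 libraries and tested in limma 3.58.1 (R 4.3.3) with Benjamini-Hochberg adjustment over all of them, at an adjusted p of 0.05 and a log2 change of 0.5. The p-values measure the spread between passages of 1 line. Library measures were compared by two-sided exact permutation over 70 arrangements. The scripts used python 3.11.15, numpy 2.4.6, pandas 2.3.3 and pysam 0.24.0 and were tested on simulated data. Same-numbered PB and DMSO libraries did not deviate together (r of -0.16, 0.05, -0.09 and 0.17), so the replicate number was not used as a block. Motifs were counted in regions up to 20 kb.

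Named genes were a panel of 36, the members of each of 32 lists with the highest and lowest differences, the regions with the largest differences (8 each way) or called changes (6 each way), and the genes with the most extreme distal medians or start-to-distal gaps (6 each way). Some genes that the rule selects are not reported here. Members and lists were chosen with earlier results of these data known. Alternatives were other thresholds, centring, GC classes, peak filters, start-site distances, the replicate block and leaving out libraries. Leaving out pairs of PB libraries, and GC centring of breadth, were added after seeing the data.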

Additional observations from a re-analysis of the deposited data

Results flagged for a closer look

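In 4 of 100 groups of 4 libraries examined, 1 library lay far from the other 3, and chance alone does this in about 1 in 20 groups. The number of start-site peaks was 17961 in DMSO replicate 3, against 20830 to 21071 in the other DMSO libraries. Start-site enrichment of CCNE2 was 11.8 in DMSO replicate 1, against 19.0 to 19.1 in the others. That of SYP, a synaptic vesicle protein, was 14.7 in DMSO replicate 3, against 9.55 to 10.0 in the others. That of SOX4, which the paper places in a retino-sympathetic CRC, was 30.5 in DMSO replicate 2, against 21.2 to 22.5 in the others. CCNE2 is the only one of these with a called change, and it lost that call in 2 of 18 alternatives.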

How the results depend on the processing

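Counts below give start-site regions first, as higher and lower in PB, then distal regions. Concentration differences beyond 0.5 numbered 1242 and 7936, then 18099 and 16776; beyond 1.5, 78 and 743, then 1748 and 832. Centred within GC classes the start-site median was -0.029, with 467 start-site regions lower, then 4091 and 1922. Requiring peaks in 3 or more libraries of the group with the higher value, 195 start-site regions were higher, then 3158 and 2617. With the start site within 1 kb or inside the region, 169 and 122 were higher.

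In enrichment, no centring gave 0 and 9, then 0 and 4 (limma). Quantile normalization gave 192 higher start-site regions. GC centring gave 118 and 258, then 72 lower distal regions. A peak in 3 of 4 libraries of each group gave 27 higher start-site regions. Peaks with a −log10 q of at least 5 gave 148 and 199, then 18 lower distal regions. The replicate block gave 227 higher distal regions, and with GC centring 156 lower start-site regions, then 110 and 36. Without PB libraries 3 and 4, 368 start-site regions were lower; without PB libraries 1 and 2, 97 and 4167, then 535 and 381.

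In breadth, no centring gave 11 and 107, then 86 higher. Peaks with a −log10 q of at least 5 gave 24 and 48, then 9 and 46. The replicate block gave 0 and 0, then 1 and 0 by limma (1772 and 4674 at an unadjusted p under 0.05). GC centring gave 29 and 58, then 115 and 233. Without PB libraries 3 and 4 the counts were 6 and 50, then 70 and 99; without PB libraries 1 and 2, 1 and 20, then 5 and 49. Same-numbered libraries did not pair, and no library correlated best with its own number.

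For peaks in PB only and in DMSO only, a −log10 q of at least 5 left 9 start-site regions in PB only, then 77 and 110 distal. Covering at least 25% of the region gave 218 and 665 in DMSO only. Without PB libraries 3 and 4, counts were 153 and 325, then 3061 and 1119; without PB libraries 1 and 2, 145 and 254, then 1521 and 967. These last counts rest on fewer libraries.

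Leaving out single libraries, enrichment was higher at 9 to 45 and lower at 202 to 1794 start-site regions, then 69 to 306 and 56 to 224. Breadth was higher at 6 to 106 and lower at 10 to 487, then 41 to 570 and 52 to 893. Peaks in PB only numbered 50 to 82, then 849 to 1577, and in DMSO only 139 to 287, then 459 to 1443. The difference in library means (PB minus DMSO) was 0.50 to 0.70 for the GC gap, -0.44 to -0.26 for start-site minus distal log2 enrichment and -0.21 to -0.10 for the same after GC centring. Over regions it was -2.24 to -0.641 (start-site) and 0.167 to 0.475 (distal) for median enrichment, and -333 to -92.1 and -320 to -72.7 for median bases. Over peaks it was -1409 to -81.3 and -5315 to 2994 in number, -13.6 to -7.17 and -21.3 to -7.65 Mb, -288 to -119 and -134 to -47.1 bases in median width, -0.709 to 0.831 and 0.147 to 0.247 in median enrichment, and -0.189 to 1.56 percentage points in the distal share. These changed sign: start-site median enrichment without PB replicate 3 (0.439), PB replicate 4 (0.543) or DMSO replicate 3, distal peak number without PB replicate 3 (-2457), PB replicate 4 (-481) or DMSO replicate 3, and the distal share without DMSO replicate 3. The cause was not tested in any of these cases. No read depth was at hand, and concentrations have no spread.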

Other observations

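Lysosome and autophagy genes were mixed. At GABARAPL1, an autophagosome protein, start-site enrichment rose by 0.73 (SE 0.16, limma adjusted p = 0.0224), with a concentration difference of 1.02. At CTSF, a lysosomal protease, it fell by 0.95 (SE 0.21, limma adjusted p = 0.0234). Over 29 lysosome genes tested, 1 rose and 3 fell, against 0.217% and 6.55% of all genes tested. A distal region 89320 bases from MITF, a factor related to the TFEB regulators of lysosomes, had a difference of 2.34 and a peak in 3 PB and 0 DMSO libraries.

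In the extracellular matrix list COL5A2 and COL5A1, chains of the same collagen, lay at opposite ends of the start-site differences, at 1.73 (35.8% GC) and -1.42 (61.3% GC). A distal region 65593 bases from PMP22, a myelin protein, had a difference of 3.25 and a peak in 3 PB and 0 DMSO libraries. Of 117 distal regions at retinoid response genes, 8 were higher beyond 1 and 23 were lower. These were 6.84% and 19.7%, against 7.12% and 7.77% of the distal regions of all genes. The median over the 117 was -0.06, the same as over all genes, and 0.04 after centring within GC classes. By limma 0 of the 12 start sites tested rose or fell, near the 0.217% and 6.55% of all genes tested, and 3 had an unadjusted p under 0.05.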
